A study of Caenorhabditis elegans with 2 samples.

Results

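The 9 U1 small nuclear RNA (snRNA) genes examined here were *sup-6*, *sup-39*, *F08H9.10*, *F08H9.11*, *F40G12.13*, *F40G12.14*, *T08G5.11*, *T27E4.10* and *T27E4.12* of *Caenorhabditis elegans*. They were taken by name from 46926 annotated genes, of which 129 have the snRNA biotype. The list was chosen with earlier results of these data known, so its counts do not come from an unselected set. Binding of SNPC-4 had been mapped by chromatin immunoprecipitation followed by sequencing (ChIP-seq) in a single group of 2 biological replicates, so there was no contrast between conditions. The animals were whole young adults, pooled from both sexes, of strain OP179, whose genotype is unc-119(ed3) III; wgIs179. The wgIs179 transgene is what makes the strain stably produce SNPC-4 fused to GFP and FLAG at its C-terminus, and the chromatin was sheared by sonication. A possible control experiment is named with the samples and is not analysed here. Signal from whole animals is summed over all their cells, so binding in more cells and more binding per cell cannot be told apart.

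U1 snRNA is the RNA of the U1 ribonucleoprotein, which recognises the 5′ splice site of an intron by base pairing through the first bases of the RNA. The ring of Sm proteins assembles on a uridine-rich Sm site further along the RNA. Transcription of snRNA genes depends on SNAPc, a complex that binds a proximal sequence element (PSE) upstream of the gene, and SNPC-4 is the worm counterpart of the large DNA-binding subunit of SNAPc. In the worm, *sup-6* and *sup-39* are known from suppressor mutations.

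The sequences of the genes fitted their label. Each of the 9 held the bases ACTTACCTG, which pair with 5′ splice sites, and the Sm site ATTTTTG. ACTTACCTG began at position 3, counted from 1 at the annotated 5′ end, in every member except *sup-39*, where it began at position 4 because the annotated end lies a base further upstream. The Sm site began at position 128, and at position 134 in *T27E4.12*. Across the 36 pairs of members the genes were 90.6% to 99.4% identical, with a median of 95.8%. The 110 bases upstream were less alike, 42.7% to 95.5% identical without gaps, with a median of 54.0%. To show how alike the RNAs are, 3 whole genes are given below from the RefSeq genome WBcel235 (ce11), 5′ to 3′ on the gene's strand, with ACTTACCTG and ATTTTTG in capitals. They are the gene with the strongest peak, a gene near the middle and the weakest gene with a peak.
*sup-6* (chrII:12944803-12944967, minus strand): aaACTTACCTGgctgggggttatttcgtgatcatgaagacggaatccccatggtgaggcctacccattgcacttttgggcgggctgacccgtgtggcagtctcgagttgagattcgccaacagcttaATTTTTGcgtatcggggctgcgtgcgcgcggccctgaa
*F40G12.13* (chrV:14267543-14267707, plus strand): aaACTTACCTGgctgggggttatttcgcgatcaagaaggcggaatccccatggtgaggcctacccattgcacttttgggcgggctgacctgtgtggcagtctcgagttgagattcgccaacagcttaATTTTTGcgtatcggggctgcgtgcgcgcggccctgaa
*T27E4.12* (chrV:9091454-9091623, minus strand): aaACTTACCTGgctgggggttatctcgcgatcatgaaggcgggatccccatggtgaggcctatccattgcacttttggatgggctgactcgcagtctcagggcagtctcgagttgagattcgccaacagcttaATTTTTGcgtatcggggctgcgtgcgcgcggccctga

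Against *F40G12.13*, with positions counted from its 5′ end, *sup-6* differed at 4 positions (C28T, A34T, G39A and T90C). Single substitutions set apart *F08H9.10* (G91A), *F08H9.11* (G163A), *F40G12.14* (A164T) and *T08G5.11* (A127T). The last of these lies just before the Sm site. *T27E4.10*, 164 bases long against 165 in *F40G12.13*, had 6 substitutions, namely T24C, A34T, A43G, C63T, G79A and C80T. *sup-39* was not compared base by base. Its ACTTACCTG began at position 4 but its Sm site at position 128, so part of it is out of step with *F40G12.13*. With gaps allowed, *sup-39* and *F40G12.13* were 95.8% identical. *T27E4.12* differed from its neighbour *T27E4.10* in a single stretch that starts at position 89, which read TCGCAGTCTCAG in *T27E4.12* and CTGTGT in *T27E4.10*.

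Although the upstream regions differed, a short element stood at the same place before every member. Of 110 upstream columns 19 held the same base in all 9 genes, though some members are near copies upstream, up to 95.5% identical. Of these columns 11 lay within the 19 bases from position −60 to position −42, counted back from the first base of the RNA. The stretch comes from the 25-base window with the most shared columns, so their crowding there is partly by construction. The shared bases there read GCGNAANNC, then 3 unfixed bases, then ANANGTC. The windows below show 80 bases upstream and the first 12 bases of the RNA for each member, and for *C27H5.11*, a U1-like gene outside the list. They are given 5′ to 3′ on the gene's strand from the same RefSeq genome, with the 19-base element and ACTTACCTG in capitals.
*sup-6* (chrII:12944956-12945047, minus strand): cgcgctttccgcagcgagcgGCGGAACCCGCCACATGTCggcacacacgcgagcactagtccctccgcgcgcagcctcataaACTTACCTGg
*sup-39* (chrII:6968546-6968637, minus strand): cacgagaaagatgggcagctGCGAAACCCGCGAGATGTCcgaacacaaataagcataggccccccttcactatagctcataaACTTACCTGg
*F08H9.11* (chrV:14468722-14468813, minus strand): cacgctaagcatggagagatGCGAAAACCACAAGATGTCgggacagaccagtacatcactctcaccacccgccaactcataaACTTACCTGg
*T08G5.11* (chrV:14028624-14028715, minus strand): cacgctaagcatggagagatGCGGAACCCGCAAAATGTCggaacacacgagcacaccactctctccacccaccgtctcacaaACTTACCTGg
*F40G12.13* (chrV:14267463-14267554, plus strand): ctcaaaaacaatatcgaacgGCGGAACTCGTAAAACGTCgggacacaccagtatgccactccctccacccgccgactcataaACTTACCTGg
*F08H9.10* (chrV:14463341-14463432, minus strand): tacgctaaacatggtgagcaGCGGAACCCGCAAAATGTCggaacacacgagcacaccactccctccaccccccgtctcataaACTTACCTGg
*F40G12.14* (chrV:14277494-14277585, plus strand): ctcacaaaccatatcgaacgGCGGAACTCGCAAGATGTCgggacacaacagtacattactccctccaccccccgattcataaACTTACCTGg
*T27E4.12* (chrV:9091612-9091703, minus strand): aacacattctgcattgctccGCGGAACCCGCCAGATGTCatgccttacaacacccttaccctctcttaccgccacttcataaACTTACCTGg
*T27E4.10* (chrV:9090796-9090887, plus strand): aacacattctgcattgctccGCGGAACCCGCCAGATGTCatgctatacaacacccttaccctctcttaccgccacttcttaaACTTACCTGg
*C27H5.11* (chrII:7171762-7171853, plus strand): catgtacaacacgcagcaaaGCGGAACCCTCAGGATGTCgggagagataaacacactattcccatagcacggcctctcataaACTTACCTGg

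The element was read from the 9 members, so its presence in all of them is by construction. Searched on both strands of the 110 upstream bases, the whole pattern was found at 5 of 85 other snRNA genes without U1 sequence (5.88%) and at 3 of 30 spliced leader genes. It was found at 2 of 19985 protein-coding genes (0.0100%) and at 0 of 632 tRNA genes. The 5 snRNA genes were *W05B2.8*, *F54D8.7*, *F42C5.12*, *K03B8.10* and *T11F9.16*, and the first 4 had a SNPC-4 peak, with signals of 1493, 710, 621 and 139. The spliced leader genes were *sls-2.8*, *sls-2.14* and *sls-2.15*, with peak signals of 1679, 390 and 330. The protein-coding genes were *hsp-16.20*, whose upstream bases overlap those of *F08H9.10*, and *T22A3.12*. These 10 genes were named after their values were seen. The shorter word CGGAACCC, which overlaps the first piece of the element, was present upstream of 5 members (55.6%), of 21.2% of the other snRNA genes, of 16.7% of spliced leader genes and of 0.0550% of protein-coding genes. The word ATGTC, which overlaps the second piece, began at position −46 in every member but *F40G12.13*. It also occurred upstream of 28.2% of the other snRNA genes, 23.3% of spliced leader genes, 25.5% of tRNA genes and 12.9% of protein-coding genes.

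Peaks were found at 8 of the 9 members (88.9%). A gene was counted where the summit of a thresholded peak, the reproducible set of 2345 peaks from both replicates, lay within 200 bp of the annotated 5′ end. By the same rule 4.87% of all annotated genes and 2.59% of protein-coding genes had a peak, and so did 46 of the 88 other snRNA genes outside the spliced leader class (52.3%). The exception among the members was *T27E4.10*. All 8 peaks belonged to the stronger 1172 of the list, where 2.31% of all genes had a peak, and 3 were among the 100 strongest. Of the 2345 strongest entries of each replicate, replicate 1 had a summit at 8 members, against 5.48% of all genes. Replicate 2 had one at 7 members, against 4.36%, and lacked *T27E4.12* as well as *T27E4.10*. Among all 30000 entries of the pooled list, which include background, the count was 8, against 30.3% of all genes. All 2345 thresholded peaks are entries of the pooled list, so that signals and summits in it are the same by construction, and *T27E4.10* had no summit among its weaker entries either.

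Signal, the authors' enrichment value for each peak, spanned a 13.0-fold range among the 8 genes, from 75.6 to 981, with a median of 247. The median of all thresholded peaks was 60.9. *sup-6* had the highest value, 981, which ranked 34 of 2345, with 599 in replicate 1 and 412 in replicate 2 (505 ± 133, SD, n = 2). *sup-39* followed with 558 at rank 63, and with 289 and 269 in the replicates (279 ± 13.9, SD, n = 2). *F08H9.11* reached 455 at rank 73, and its replicate values were 228 and 229 (228 ± 0.612, SD, n = 2). These genes kept the same order at the top of both replicates, and their replicate values did not overlap with each other or with those of any other member.

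The genes in the middle did not differ beyond their replicate spread. *T08G5.11* had a signal of 248, with 169 in replicate 1 and 77.0 in replicate 2 (123 ± 65.3, SD, n = 2). *F40G12.13* was at 246, with 160 and 87.8 (124 ± 51.4, SD, n = 2). *F08H9.10* was at 198, with 106 and 104 (105 ± 1.41, SD, n = 2). The replicate ranges of these genes overlapped, and replicate 2 placed *F08H9.10* above the other two where replicate 1 placed it below them. The lowest pair lay under them without overlap. *F40G12.14* had 94.3 at rank 532, with 47.9 and 51.3 (49.6 ± 2.36, SD, n = 2). *T27E4.12* had 75.6 at rank 788, with 55.2 and only 15.1 (35.2 ± 28.4, SD, n = 2), so the replicate values of this pair overlapped. In replicate 2 the *T27E4.12* entry ranked 4096, which lies outside that replicate's strongest 2345.

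**Figure D1:**
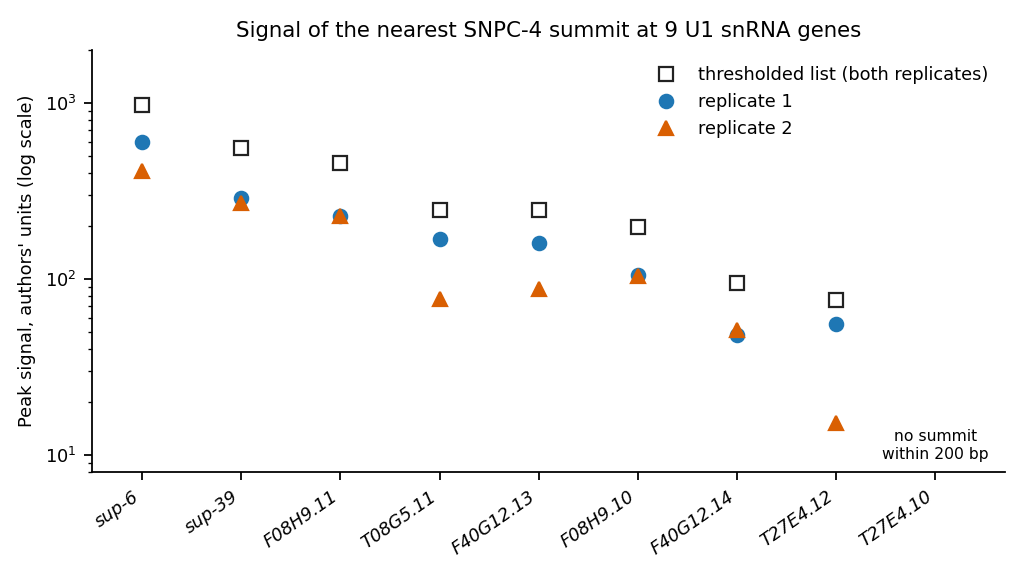
Signal of the nearest summit within 200 bp of the 5′ end of each U1 gene, in the authors' units on a log axis, with squares for the thresholded list, circles for replicate 1 and triangles for replicate 2. Genes are ordered by thresholded signal, which falls from 981 at *sup-6* to 75.6 at *T27E4.12*, and *T27E4.10* has no summit in any of the lists.

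How alike the replicates were varied by gene. The ratio of replicate 1 to replicate 2 was 0.935 to 3.66 at the members, with a median of 1.26. It was highest at *T27E4.12* (3.66), *T08G5.11* (2.20) and *F40G12.13* (1.83), and close to 1 at *F40G12.14* (0.935), *F08H9.11* (0.996), *F08H9.10* (1.02) and *sup-39* (1.07). Over the 2217 thresholded peaks with an entry in both replicates the median ratio was 1.24, and the ratio was between 0.520 and 3.05 for the middle 80% of them. The ratio at *T27E4.12* was therefore outside that range and those of the other 7 genes inside it. The ratio compares entries of lists made separately, and not amounts of DNA. The thresholded signal was close to the sum of the replicate signals at the members, at a median of 0.994 of that sum.

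Most thresholded summits fell on or beside the shared element. At 6 of the 8 genes the thresholded summit lay 34 to 55 bp upstream of the annotated 5′ end, and the median over the 8 was −43.5 bp, where a negative offset is upstream. The summit was at −45 bp at *sup-6*, −50 bp at *sup-39*, −55 bp at *F08H9.11*, −52 bp at *F08H9.10* and −42 bp at *F40G12.13*. At each of these 5 genes the thresholded summit was inside the 19-base element. At *T08G5.11* it lay at −34 bp, 8 bases from the element. Medians over the genes were −42.0 bp in replicate 1 (n = 8) and −44.0 bp in replicate 2 (n = 7). The summits of the replicates lay closest together at *sup-39* and *sup-6*. *sup-6* had summits at −51 and −44 bp in replicates 1 and 2, *sup-39* at −51 and −50 bp, and *F08H9.11* at −54 and −68 bp. *T08G5.11* had them at −33 and −43 bp, *F08H9.10* at −25 and −37 bp, and *F40G12.13* at −69 and −46 bp. Of these replicate summits, those outside the element were both at *F08H9.10*, replicate 1 at *F40G12.13* and *T08G5.11*, and replicate 2 at *F08H9.11*.

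The genes with the lowest signals departed from that position. At *F40G12.14* the thresholded summit was 100 bp inside the gene, 142 bases from the element, and the replicate summits stood at +23 and +155 bp. At *T27E4.12* it was at −11 bp, 31 bases from the element, and the replicate summits were at −2 and +85 bp. These 2 peaks had the commonest width of the thresholded list, 380 bp, which 60.0% of its entries have. The peaks nearest to the 5′ ends of the other genes were 897 bp wide at *sup-6*, 631 bp at *F08H9.11* and 517 bp at *sup-39*. They were 388 bp wide at *T08G5.11*, 315 bp at *F08H9.10* and 283 bp at *F40G12.13*. Further summits within 200 bp were seen at *F40G12.13*, *T08G5.11* and *T27E4.12*. *F40G12.13* had another thresholded summit at +159 bp with signal 170 and rank 243, in a peak that was also 380 bp wide. It was matched by summits at +134 bp (108) and +157 bp (64.4) in replicates 1 and 2. *T08G5.11* had another summit, at +158 bp with signal 80.9, in replicate 2 but not in replicate 1 or the thresholded list. *T27E4.12* had another as well, at −129 bp with signal 9.12 and rank 9364, in replicate 2 but not in replicate 1 or the thresholded list.

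**Figure D2:**
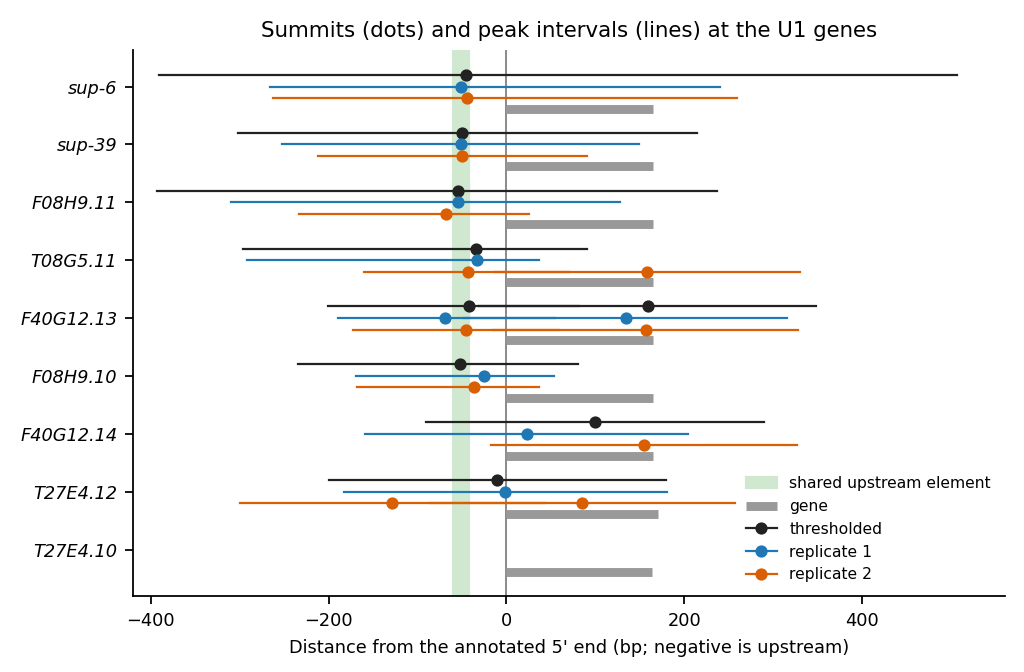
Summits (dots) and peak intervals (lines) at the 9 U1 genes by distance in bp from the annotated 5′ end, in the thresholded list (black), replicate 1 (blue) and replicate 2 (orange), with the gene as a grey bar and the shared upstream element as a green band. Thresholded summits lie in or within 8 bases of the band at 6 genes, while *F40G12.14* has its summit at +100 bp and *T27E4.12* at −11 bp.

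The near-identical gene bodies limit how surely a peak can be given to a single gene. To measure this, every 32-base word of the 200 bp on either side of the 5′ end was looked up in the genome, and a word found only there is called unique. A gene with under 80% unique words is called uncertain here. By this rule *sup-6*, with 81.6% unique words, was the member above the limit, and the other 8 were uncertain. The call depends on the word length. With 50-base words *sup-6* was again the one member above 80%, but with 100-base words *sup-39* (91.4%), *F08H9.10* (100%), *T08G5.11* (91.1%) and *T27E4.12* (100%) passed too, which left 4 members uncertain. The values were 73.8% at *sup-39*, 67.3% at *F08H9.10*, 65.1% at *T08G5.11*, 63.2% at *F40G12.14*, 61.1% at *T27E4.12*, 60.3% at *F40G12.13* and 60.0% at *F08H9.11*. Except at *T27E4.10*, the repeated words lay mostly in the gene itself. Upstream of the 5′ end all words were unique at *sup-6*, *sup-39*, *F40G12.13* and *F40G12.14*, and 94.1%, 93.5%, 87.6% and 76.9% were unique at *F08H9.10*, *F08H9.11*, *T08G5.11* and *T27E4.12*. Downstream the share was 17.1% at *F40G12.13*, 22.4% at *F40G12.14* and 60.6% at *sup-6*. The *F40G12.14* summit stood in the repeated gene body. Across the 8 genes with a peak the share of unique words and the thresholded signal had a Spearman correlation of 0.45, and a Pearson correlation of 0.70 with log2 signal, given as a description over genes that share sequence. How reads that map to several places were treated is not given in the sources used here, and the part of uniqueness in these signals was not tested.

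*T27E4.10* differed most from the others on this measure. Of the words around its 5′ end 8.11% were unique, with 0% upstream and 17.6% downstream. No summit lay within 200 bp of its 5′ end in the thresholded, pooled or either replicate list. The nearest thresholded summit was the one of *T27E4.12*, 758 bp downstream, and replicate 2 had an entry of signal 3.24 at +214 bp. *T27E4.10* nevertheless carries the same 19 bases as *T27E4.12* at the position of the element, as printed above, and their upstream bases were 95.5% identical. With so few unique words, the missing peak does not show whether SNPC-4 was bound there.

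**Figure D3:**
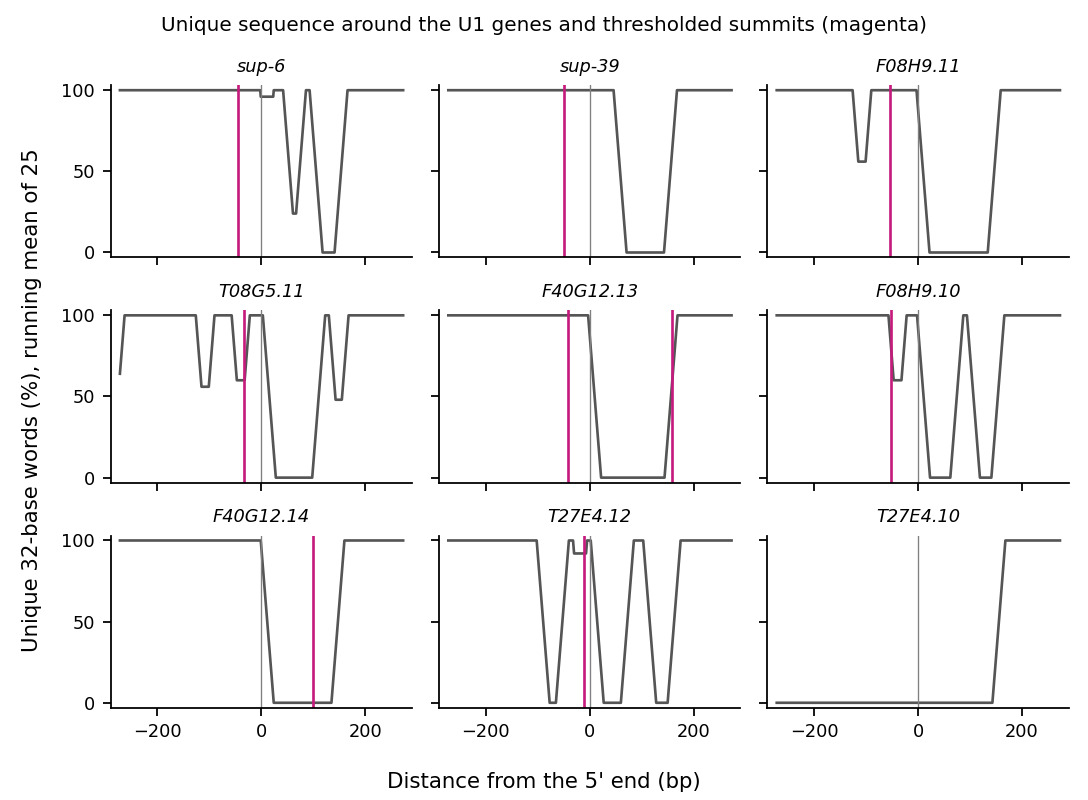
Percent of 32-base words that are unique in the genome, as a running mean of 25 words, by distance in bp from the 5′ end of each U1 gene, with thresholded summits as magenta lines. Unique words surround most upstream summits, the *F40G12.14* summit at +100 bp stands where none are unique, and upstream of *T27E4.10* none are unique.

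A search of the 28 other snRNA genes of similar length, 140 to 190 bases, found 3 more with U1 sequence, at 85% identity or above to a member. The next most alike gene reached 50.9%. *H27M09.6* (chrI:6847137-6847303, minus strand) was 97.0% identical to *F40G12.13*. Its peak had signal 445 at rank 76, with 273 and 170 in the replicates and the summit at −48 bp, and 82.4% of its words were unique. The same summit lies 160 bp upstream of *syp-4*, a protein-coding gene on the opposite strand, so this peak counts for both genes. *C27H5.11* (chrII:7171842-7172004, plus strand) was 96.4% identical to *F40G12.14*, with signal 122 at rank 365, replicate signals of 53.8 and 63.6, a summit at −48 bp and 78.9% unique words. Each of them matched the shared element, from position −60, with 1 mismatch. *T27E4.11* (chrV:9086858-9087021, minus strand) was 99.4% identical to *T27E4.10*, with the same 110 upstream bases. It too had no summit within 200 bp in any list, and 10.8% of its words were unique. Its nearest entries were weak ones, with signal 18.4 at +202 bp in replicate 1 and signal 23.1 at +252 bp in the pooled list.

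The members lay on 2 chromosomes, 7 on chromosome V and 2 on chromosome II, in varied surroundings. *T27E4.10* and *T27E4.12* face each other 414 bp apart, *F08H9.10* and *F08H9.11* are 5216 bp apart on the same strand, and *F40G12.13* and *F40G12.14* are 9866 bp apart on the same strand. Of the protein-coding genes next to or around the members, *F58G1.7* and *hsp-16.20* had a peak at their own 5′ end. *sup-6* lies in an intron of *F58G1.7* on the same strand, 3291 bp from its 5′ end, where a separate peak of signal 78.1 had its summit at −192 bp. The noncoding RNA genes *F58G1.11* and *F58G1.12* start 28 and 116 bp from the *sup-6* summit, so the same peak counts for them too. *sup-39* lies in an intron of *C15F1.5*, whose own 5′ end had no peak, between *eif-2Bgamma*, a translation initiation factor gene, and *art-1*. Its annotation also holds *mir-1831*, whose 5′ end is 57 bp from the summit.

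Heat shock genes flank several members on chromosome V. *F08H9.10* overlaps the 5′ UTR of *hsp-16.20*, a small heat shock protein gene on the same strand, and their 5′ ends are 14 bp apart. The summit at *F08H9.10* is 66 bp upstream of *hsp-16.20*, so that this peak cannot be assigned to one of them by position. *hsp-16.21*, of the same family, lies 167 bp upstream and had no peak at its 5′ end, and *F08H9.2* lies 2130 bp downstream. *hsp-16.11* lies 271 bp upstream of *T27E4.10* and 849 bp downstream of *T27E4.12*, and had no peak at its 5′ end. The 110 bases upstream of *T27E4.10* recur at *T27E4.11*, and unique words were not counted at the *hsp-16.11* 5′ end. Its missing peak therefore does not show whether SNPC-4 was bound there. *T27E4.1* is 721 bp upstream of *T27E4.12*, and the small RNA annotations *T27E4.22* and *T27E4.15* have 5′ ends 26 and 183 bp from its summit.

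The neighbours of the remaining members had no peak at their 5′ ends. *F08H9.11* lies between *srz-97*, a chemoreceptor family gene 322 bp downstream, and *clec-57*, a C-type lectin gene 497 bp upstream. *T08G5.11* lies 986 bp from *T08G5.3* and 5313 bp from *ins-10*, an insulin-like peptide gene. *F40G12.13* has *F40G12.2* 6611 bp upstream and *F40G12.4*, on the opposite strand, 44 bp downstream. *F40G12.14* has *F40G12.7* 1022 bp upstream and *srt-33*, of a chemoreceptor family, 573 bp downstream. On the downstream side of *sup-6* is *arrd-10*, 874 bp away, and on the upstream side is *Y38F1A.1*, 7522 bp away.

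Set beside the other targets of SNAPc, the U1 genes with a peak had a median signal of 247, above that of the other snRNA genes and below that of the spliced leader genes. The 46 other snRNA genes with a peak, which include *H27M09.6* and *C27H5.11*, had a median signal of 208 (55.4 to 1493) and a median offset of −38.0 bp, and their strongest were *W05B2.8* (1493), *C52E4.8* (1159) and *F38E11.10* (965). Of the 30 spliced leader genes, whose RNAs donate the leader in trans-splicing, 17 had a peak (56.7%), with a median signal of 408 (145 to 2151) and a median offset of −44.0 bp. The strongest were *sls-2.1* (2151), *sls-2.8* (1679) and *sls-2.16* (1607). All 17 were *sls-2* genes, and no *sls-1* gene had a peak. Around the 5′ ends of the *sls-1* genes 0% to 8.65% of the 32-base words were unique, so their missing peaks do not show whether SNPC-4 was bound. The range of the U1 signals, 75.6 to 981, overlapped both, and no test between the classes was made. Many of these genes also have near copies, and the part of that in their counts was not tested.

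**Figure D4:**
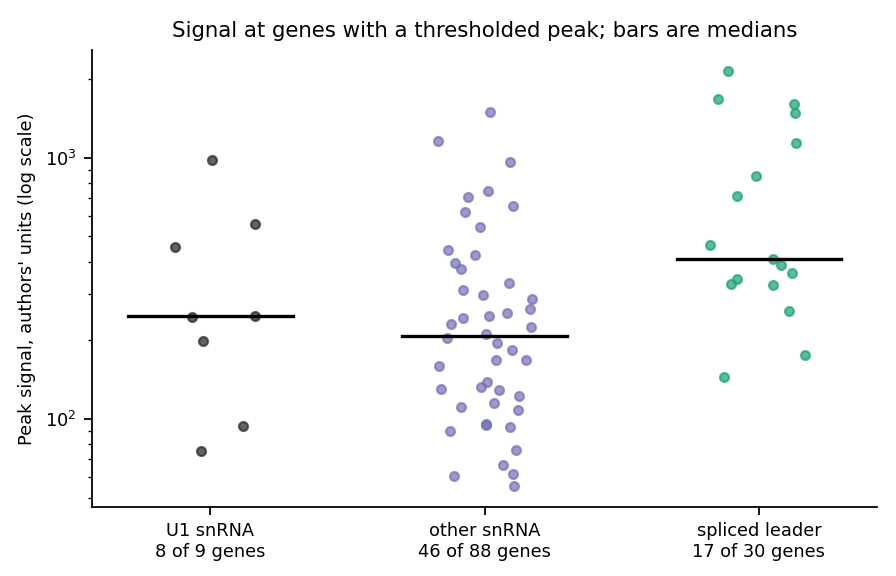
Thresholded peak signal, in the authors' units on a log axis, of each gene with a peak among U1, other snRNA and spliced leader genes, with bars at the medians of 247, 208 and 408. The ranges of the 3 classes overlap, and the points are spread sideways at random for legibility.

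Of the 30 protein-coding genes listed for the U1 pathway, 3 had a SNPC-4 peak within 200 bp of the 5′ end. This was a larger share than the 2.59% of all protein-coding genes, but the list was chosen with earlier results known and no test was made. Among 8 SNAPc subunit genes, *snpc-3.4* had a peak of signal 69.2 at −21 bp, with 39.7 and 35.9 in the replicates. *snpc-4* itself had one of signal 124 at −190 bp. The replicate entries nearest to that summit were 50.4 at −196 bp and 59.8 at −226 bp, the latter outside the window. Nearer to the *snpc-4* 5′ end, replicates 1 and 2 had weaker entries of 17.2 and 23.9, both within 200 bp. The *snpc-4* sequence is also carried by the transgene, and the part of that in its peak was not tested. Among 11 genes of Integrator, the complex that cuts the 3′ ends of snRNA precursors, *ints-4* had a peak of signal 74.2 at +78 bp, with 34.5 and 23.6 in the replicates. Each of the 3 was weaker than the median U1 gene.

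The window decided the count for the genes of U1 and Sm proteins. None of these 10 had a summit within 200 bp, but 4 had one within 500 bp. The summit was at −216 bp from *snr-3* with signal 66.4, at −339 bp from *snr-4* with 1159, at −340 bp from *snr-2* with 56.8 and at −374 bp from *snr-1* with 67.0, all of them genes of Sm proteins. The peak near *snr-4* is the one counted for the snRNA gene *C52E4.8*. *smn-1*, whose product helps Sm proteins assemble on snRNAs, had a summit at −213 bp with signal 59.7. With these 5 genes the count within 500 bp was 8 of 30, against 5.51% of protein-coding genes. *rnp-7*, which encodes the U1-70K protein, had its nearest thresholded summit at −1328 bp.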

How the data were processed

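SNPC-4 ChIP-seq peaks were available for 2 biological replicates on ce11 as 4 lists: the thresholded list, the pooled list and a list for each replicate. The signal per peak is the enrichment value deposited by the authors, used to describe and rank peaks within each list. In the thresholded list every −log10 q deposited for a peak was 3.59, which gave no ranking. The deposited lists also gave each summit. The thresholded list had passed irreproducible discovery rate (IDR) filtering, per the file headers and labels. The peak caller, aligner, IDR threshold and control scaling are not stated in the labels or headers, and with no read counts the depth per replicate is unknown. The ce10 lists were not used here.

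Genes came from Ensembl release 115 on WBcel235 (ce11), and symbols from RefSeq, which matched all 129 snRNA genes. The 2345 strongest entries of a replicate list stood for its peaks. Summits of both replicates, offsets, 32-base word counts, identities and motif searches were computed with Python 3.11.15, pandas 2.3.3, NumPy 2.4.6, SciPy 1.17.1 and Biopython 1.88, and the summit assignment was tested on simulated data. Named were all members, their protein-coding neighbours, genes with a 5′ end within 200 bp of a member's summit, pathway genes with a peak, *rnp-7*, *snpc-4* and the 3 strongest genes of each comparison class. Named beyond this rule, after their values were seen, were the U1-like genes, genes with the upstream pattern, *syp-4*, *smn-1* and *snr-1* to *snr-4*. The members and lists were chosen with earlier results of these data known, and no test was made. The alternatives tried were windows of 100 and 500 bp, other lists, the strongest summit, each replicate alone, and words of 50 and 100 bases.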

Additional observations from a re-analysis of the deposited data

How the results depend on the processing

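With summits within 100 or 500 bp, peak intervals that overlap the 5′ end, the stronger 1172 thresholded peaks, or all pooled entries (which contain the thresholded peaks), 8 U1 genes had a peak. The median signal of 247 and median offset of −43.5 bp did not move with the windows. With each replicate left out in turn, the count ranged from 7 to 8, the median signal from 104 to 165 and the median offset from −44.0 to −42.0 bp. The median of 104 is over the 7 genes counted in replicate 2. A replicate alone is not on the scale of the thresholded list, whose signal had a median of 0.994 of the replicate sum at the members. The cause of these shifts was not tested. Of the genes with at least 80% unique words, *sup-6* alone was left, so that the median signal became 981. The mean share of unique words around the 9 genes was 60.1% with 32-base words, 67.2% with 50-base words and 80.6% with 100-base words, and 8, 8 and 4 of them were under 80%. The pathway list had 2 genes with a peak within 100 bp, 3 within 200 bp and 8 within 500 bp. No paired analysis was possible because the samples form a single group. Depth was unknown, so a weak entry cannot be told from background, and with 2 replicates an SD is a rough measure of spread.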
